A study of Rattus norvegicus with 24 samples.

Results

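Chodl (ENSRNOG00000001915) and Clic2 (ENSRNOG00000000728) are 2 of the 32623 genes counted in the carotid bodies (CBs) of Wistar-Kyoto and spontaneously hypertensive (SH) rats. They were chosen because their counts were seen to separate the strains, so their strain difference is given here as a description and carries no test. What was not used in choosing them, namely the side of the CB, the relation to Chga and the genes listed around them, is described and, where the design allows, tested. The spread among rats is described too, but it bears on the separation of the strains and so on the choice. The left and right CBs of 6 WKY/NHsd and 6 SHR/NHsd rats were dissected from perfused animals and sequenced separately as polyadenylated RNA, which gave 24 libraries. All rats were male and 12 to 14 weeks old by the sample labels, which name no treatment, and both strains are inbred, so that strain stands for all that differs between these colonies. Total counts ran from 9198341 to 13655419 per library.

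CBs are chemosensory organs at the fork of the common carotid arteries, and their glomus cells hold dense-core granules whose main proteins are the chromogranins. Chga encodes chromogranin A and serves here as a readout of glomus cells. Chodl encodes chondrolectin, a membrane protein with a C-type lectin domain that is known for its expression in fast motor neurons and in some other neurons. Clic2 encodes chloride intracellular channel 2, a small protein with a fold like that of glutathione transferases, which can bind and inhibit ryanodine receptors, the calcium release channels of intracellular stores.

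The right CB of SH rat 34 was left out of the study's own result table and is left out of the fits here, so that values below are over the other 23 libraries unless it is named. That library went against its label. It held 54.1 CPM (counts scaled to a common library size, per the TMM method) of Chga and 3.84 CPM of Chgb, which encodes another chromogranin, against 792 and 836 CPM in the left CB of the same rat, and 7849 CPM of Tg, which encodes the thyroid hormone precursor thyroglobulin, against 2.46 CPM. Its level of Fabp4, a fatty acid binding protein of adipocytes, was 385 CPM against 6.25 CPM.

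Chodl was many-fold higher in every SHR CB than in any WKY CB. In the left CBs of WKY rats it lay between 3.23 and 5.55 CPM (median 4.33, n = 6), from 32 to 55 counts per library, and in the right CBs between 3.30 and 6.39 CPM (median 4.75, n = 6). In the left CBs of SH rats it lay between 51.0 and 79.2 CPM (median 57.9, n = 6). On the right, SH rats 30, 31, 33, 36 and 37 had 46.5, 43.4, 61.5, 58.9 and 51.2 CPM. The strains did not overlap, and the lowest SHR library stood 6.79-fold above the highest WKY library. In a fit over libraries with side as a covariate, the difference corresponded to 12.3-fold (log2 fold change 3.62, standard error 0.108), which placed Chodl 8th from the top of the 14258 genes tested.

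Clic2 also separated the strains, with a smaller fold difference. It lay between 10.8 and 16.4 CPM in the left CBs of WKY rats (median 14.1, n = 6) and between 11.4 and 21.9 CPM in the right CBs (median 13.3, n = 6). In the left CBs of SH rats it lay between 57.5 and 88.9 CPM (median 70.3, n = 6), and those rats of the strain with a usable right CB (30, 31, 33, 36 and 37) had 66.0, 59.1, 63.4, 60.4 and 79.3 CPM there. Again no library of one strain reached the range of the other, with a gap of 2.63-fold between the nearest libraries. The fitted difference was 4.82-fold (log2 fold change 2.27, standard error 0.103). Over all genes tested, 0.926% had every SHR library above every WKY library and 1.08% had every SHR library below, while 20.1% had an adjusted p under 0.05 between strains in either direction (edgeR's quasi-likelihood test). That fit counts the CBs of a rat as separate samples, and with counts summed per rat it called 2041 of 15130 genes in place of 2863 of 14258. Nothing is read from these shares about the 2 genes, which were selected on this comparison.

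**Figure D1:**
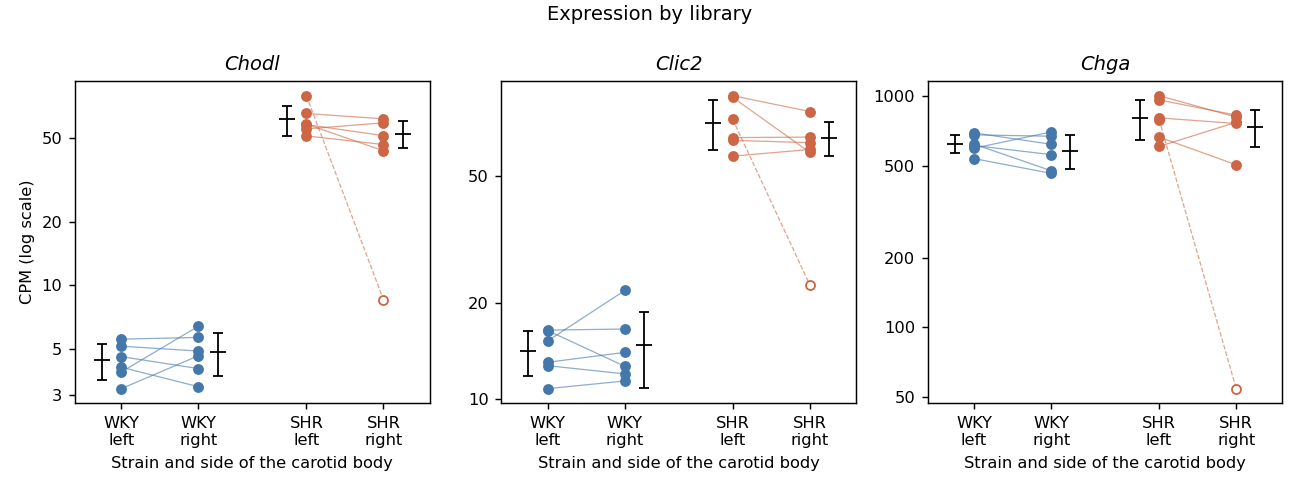
Expression of Chodl, Clic2 and Chga in CPM (log scale) in each of the 24 libraries, by strain and side. Points are libraries, lines join the CBs of a rat, and bars give the mean and SD of 6 libraries (5 for SHR right). The open point is the right CB of SH rat 34, left out of the bars. For Chodl the WKY libraries end at 6.39 CPM and the other SHR libraries start at 43.4 CPM. For Clic2 these values are 21.9 and 57.5 CPM, and for Chga the strains overlap.

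Chga itself differed far less between the strains. Its mean over 6 WKY rats was 602 ± 69.5 CPM (SD) and over 6 SH rats 776 ± 124 CPM, and the libraries overlapped, at 463 to 701 and 505 to 1006 CPM. On the log2 scale the strains differed by 0.36 (SE 0.0915), with an adjusted p of 0.00629 in edgeR. That fit counts the CBs of a rat as separate samples, so its standard errors and p-values may be too small, here and for the other genes named. No fit per rat is given for Chga. In bulk tissue, more glomus cells and more RNA per glomus cell cannot be told apart. Set against Chga, Chodl had 7.74 ± 1.65 counts per 1000 counts of Chga (SD, n = 6 rats) in WKY and 77.1 ± 17.1 (SD, n = 6) in SHR, a ratio of 9.96. Clic2 had 24.6 ± 7.47 counts per 1000 counts of Chga in WKY and 93.2 ± 26.4 in SHR (SD, n = 6 each), a ratio of 3.78. On this scale the strains did not overlap either. Library values of Chodl were 5.33 to 13.4 in WKY and 53.4 to 101 in SHR, and those of Clic2 15.9 to 47.2 and 59.7 to 157. Both genes were chosen for their separation and Chga differed far less, so this outcome was largely set in advance. It is no test of the part of glomus cells.

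Both genes were low in the right CB of SH rat 34. Chodl had 69 counts there, or 8.54 CPM, which was 10.9% of its level in the left CB of the same rat. Clic2 had 184 counts, or 22.8 CPM, 30.6% of the level on the left, and Chga kept 6.88%. Both levels were still just above the highest WKY library, at 6.31 CPM for Chodl and 21.8 CPM for Clic2 when all 24 libraries were scaled together. Of the genes tested, 16.4% were at or below 50% of their mean in the other SHR libraries, and 4.80% fell further than Chodl, 10.4% further than Clic2 and 2.44% further than Chga. Per 1000 counts of Chga, this library had 158 counts of Chodl and 421 of Clic2, above every other library. These values rest on 437 counts of Chga and on 1 library with thyroid and adipocyte markers, whose part in them was not tested.

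Within each strain, no relation of Chodl or Clic2 to Chga passed correction. Correlations were computed over the rats of a strain, since the strains form separate clusters, and over the left minus right differences of the 11 rats with both libraries, which made 9 relations. For Chodl and Chga, Pearson's r was -0.24 over the 6 WKY rats (exact permutation p = 0.637, Spearman's rho -0.086, exact permutation p = 0.919) and 0.16 over the 6 SH rats (exact permutation p = 0.761, rho 0.14, exact permutation p = 0.803). Without the 2 rats farthest from the median of Chga, r was -0.54 in WKY and -0.82 in SHR, so that even its sign rested on those rats in SHR.

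The strongest relation was negative and did not pass correction. Clic2 was lower in WKY rats with more Chga (r = -0.87, exact permutation p = 0.0278, rho = -0.89, exact permutation p = 0.0333, n = 6), with an adjusted p of 0.25 for r and 0.3 for rho over the 9 relations (exact permutation tests). In WKY r was -0.94 without the 2 farthest rats, -0.93 to -0.75 without each rat in turn and -0.54 in the left CBs alone. In the 6 SH rats the same relation had r = -0.61 (exact permutation p = 0.197, rho = -0.37, exact permutation p = 0.497) and r = -0.23 without the 2 farthest. There r was -0.79 to -0.061 without each rat in turn, weakest without rat 37, and -0.063 in the left CBs alone. In the left minus right differences, r with Chga was 0.084 for Chodl (permutation p = 0.819, rho 0.20, permutation p = 0.559) and 0.26 for Clic2 (permutation p = 0.436, rho 0.34, permutation p = 0.314), and -0.24 and 0.51 without the 2 farthest rats. The levels of CPM in a library share 1 total, so that these relations are not free of each other.

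No relation between Chodl and Clic2 was detected among rats of one strain. Their r was 0.18 in WKY (exact permutation p = 0.717, rho 0.14, exact permutation p = 0.803) and 0.098 in SHR (exact permutation p = 0.843, rho -0.029, exact permutation p = 1). Without the 2 rats farthest from the median of Clic2, r was 0.89 in WKY and 0.41 in SHR. In the differences between sides it was -0.14 (permutation p = 0.659, rho -0.082, permutation p = 0.819), and -0.69 without the 2 farthest rats. The difference between sides had the same sign for both genes in 5 of 11 rats. All adjusted p-values of Pearson's r other than that of Clic2 and Chga in WKY were 0.843. With 6 rats, relations short of very strong ones could not be told from none.

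**Figure D2:**
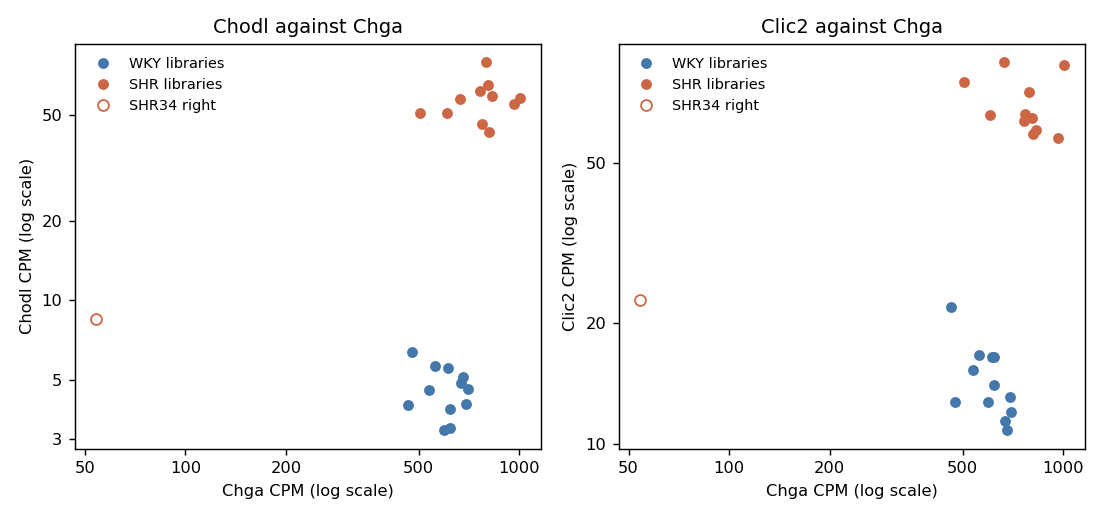
Chodl (left panel) and Clic2 (right panel) against Chga, in CPM on log scales, 1 point per library. The SHR libraries lie above the WKY libraries at overlapping levels of Chga, and the open point, the right CB of SH rat 34, lies apart at 54.1 CPM of Chga.

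The spread of both genes among rats was small beside the distance between the strains, which follows from their choice as genes that separate the strains. It was still larger than that of most genes, since 57.0% to 82.5% of the genes tested varied less between rats of a strain. The SD between rats, on the scale of log2(CPM + 0.5), was 0.21 for Chodl in WKY and 0.26 in SHR, and 0.26 and 0.18 for Clic2. The median over all genes tested was 0.14 in WKY and 0.16 in SHR. Between the sides of one rat, the SD was 0.25 and 0.15 for Chodl and 0.18 and 0.19 for Clic2, against medians of 0.16 and 0.19. The SD between rats is that of the mean over the sides of a rat, and the SD between sides is that of single libraries. The former was the larger for Chodl in SHR and Clic2 in WKY, and the smaller for Chodl in WKY and Clic2 in SHR. Since the scales differ, this does not tell whether rats differed more than sides. In SHR the SD between rats covered 6 rats and that between sides 5, since SH rat 34 had only its left library. That library held 79.2 CPM of Chodl, against 48.7 to 63.3 CPM in the other SH rats. The contrast for Chodl in SHR may thus rest on it and was not tested without it. Counting error was a large part of the spread of Chodl in WKY, where libraries varied by 20.9% and counting alone would give 14.7%. In SHR the values were 17.1% and 4.12%. For Clic2 they were 21.4% and 8.29% in WKY and 16.1% and 3.71% in SHR.

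The side of the CB, which played no part in the choice of these genes, made no difference that could be detected. In WKY, the right CB minus the left was 0.12 on the log2 scale for Chodl (95% interval -0.22 to 0.46) and 0.065 for Clic2 (-0.24 to 0.37), each with an adjusted p of 0.99994 (edgeR's quasi-likelihood test). In SHR it was -0.22 for Chodl (-0.48 to 0.035, adjusted p = 0.681, edgeR) and -0.16 for Clic2 (-0.44 to 0.12, adjusted p = 0.809, edgeR). The left CB had more Chodl in 3 of 6 WKY rats and in 4 of 5 SH rats, and more Clic2 in 2 of 6 and in 3 of 5. WKY rat 36 stood out for Chodl, with 3.88 CPM on the left and 6.39 CPM on the right, and WKY rat 34 for Clic2, with 15.2 and 21.9 CPM. SH rat 31 had the widest gap among SH rats in both genes, with 58.0 and 43.4 CPM of Chodl and 87.8 and 59.1 CPM of Clic2.

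No change of the strain difference with the side was detected. The side difference in SHR minus that in WKY was -0.34 for Chodl (95% interval -0.77 to 0.086, adjusted p = 0.999, edgeR) and -0.22 for Clic2 (-0.64 to 0.19, adjusted p = 0.999, edgeR), against strain differences of 3.62 and 2.27. Over all 14258 genes, 0% were called between sides in WKY, 0% in SHR and 0% for the interaction at an adjusted p under 0.05. At an unadjusted p under 0.05 edgeR gave 226 (1.59%), 1103 (7.74%) and 438 (3.07%) genes, none of them Chodl or Clic2, and DESeq2 gave 0 genes after adjustment and 234, 1166 and 475 before it. With each rat as a block, neither gene was called either.

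**Figure D3:**
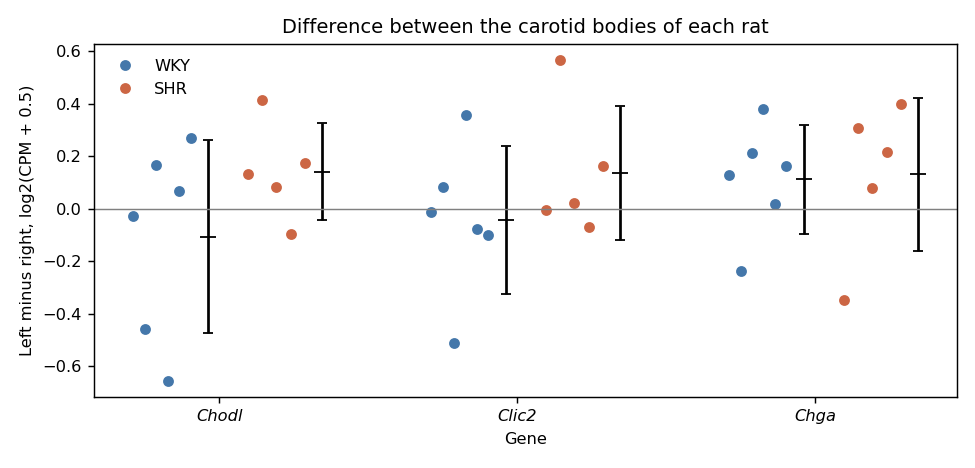
Left minus right difference of log2(CPM + 0.5) in each rat with both libraries (6 WKY, 5 SHR), for Chodl, Clic2 and Chga. Points are rats and bars give the mean and SD. The values lie on both sides of 0 in each gene and strain, from -0.65 to 0.27 for Chodl in WKY and from -0.095 to 0.42 in SHR.

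The genes listed next to Chodl and Clic2 did not show a like increase in SHR. The deposited table is grouped by chromosome, since 1163 of 1197 neighbouring pairs of named genes lie on the same chromosome in the RefSeq annotation of GRCr8. That count does not test the order of genes within a chromosome. Among the 10 tested genes on each side of Chodl, log2 fold changes ran from -0.68 to 0.28 with a median of -0.08, against 0.0057 over all genes tested. Of these 20 neighbours 6 had an adjusted p under 0.05 (edgeR), 1 higher and 5 lower in SHR, beside 10.2% of all genes higher and 9.85% lower. The higher one was Btg3, an antiproliferative gene that RefSeq also places close to Chodl, at 0.28 (standard error 0.0674, adjusted p = 0.00317, edgeR). Of these neighbours only Btg3 had a symbol, and symbols were known only for genes higher in SHR. The 5 lower ones could thus not be named. Among the 20 neighbours of Clic2, the values ran from -1.15 to 0.26 with a median of -0.15, and 8 passed, 2 higher and 6 lower. None of the neighbours of Clic2 could be paired with a symbol, so their place beside it rests on the order of the table alone.

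**Figure D4:**
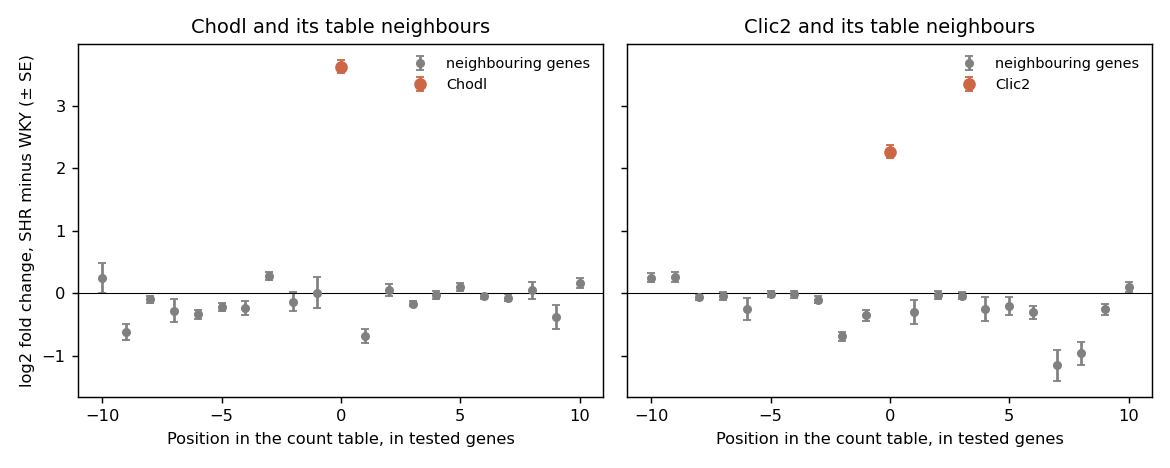
Log2 fold change, SHR minus WKY, with its standard error, of Chodl (left panel) and Clic2 (right panel) at position 0 and of the 10 tested genes on each side in the order of the count table. The members lie at 3.62 and 2.27, and the highest neighbour lies at 0.28 and 0.26.

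Some genes with a C-type lectin domain, like that of Chodl, could be named. Symbols came from the readable part of the study's list of genes, which holds only genes higher in SHR. Every gene matched to a symbol, here and above (Chga, Chgb and Btg3 among them), could thus be named only because it was higher there. The direction is thus set by that choice, which used these same data. The fold changes, p-values, counts of genes that passed and medians are shaped by it too. They describe the paired genes alone, are no independent tests and support nothing about the lists. Among 22 listed genes with such a domain, 9 had a known identifier, and 7 of the 8 besides Chodl had an adjusted p under 0.05 (edgeR), with a median log2 fold change of 0.67. Over all genes tested, 10.2% were called higher and the median was 0.0057. The other listed genes were not analysed here. Layn, which encodes the hyaluronan receptor layilin, averaged 79.6 ± 6.13 CPM over 6 WKY rats (SD) and 232 ± 40.2 CPM over 6 SH rats, 1.497 apart on the log2 scale (SE 0.0799) with an adjusted p of 2.99e-14 in edgeR. Every SHR library of Layn, at 177 CPM or more, lay above every WKY library, at 93.0 CPM or less, and the library left out had 46.4 CPM. Clec2l, another lectin-like gene, rose from 0.959 ± 0.0780 to 3.26 ± 0.419 CPM without overlap of libraries.

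Smaller increases were found among the paired lectins that mark myeloid cells or are secreted. Clec10a and Mrc1, which encode endocytic lectins of macrophages, had log2 fold changes of 0.78 and 0.61 (adjusted p = 8.65e-05 and 0.0183, edgeR), with overlapping libraries. Clec11a, a secreted growth factor, rose from 80.3 ± 14.7 to 114 ± 15.5 CPM (SD, n = 6 each). Vcan, the matrix proteoglycan versican, was the member that did not pass, at 17.4 ± 3.48 and 22.9 ± 9.30 CPM (adjusted p = 0.211, edgeR).

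In the CLIC family, Clic6 was the other gene of 6 that could be paired. Its means were 5.58 ± 2.17 CPM for WKY and 7.60 ± 2.34 CPM for SHR (SD, n = 6 each), and the difference of 0.50 on the log2 scale (SE 0.184) did not pass, with an adjusted p of 0.0536 in edgeR. Among 26 listed genes of ryanodine receptors and calcium stores, 6 had a known identifier and 4 passed, with a median log2 fold change of 0.43, beside 10.2% of all genes called higher. As for the lectins, only genes higher in SHR could be paired, and the rest of the list was not analysed here. Casq1, the store's calcium-binding protein calsequestrin, changed most, from 3.15 ± 0.862 to 7.52 ± 0.899 CPM (1.28 on the log2 scale, SE 0.148, adjusted p = 1.83e-07 in edgeR). Trdn, whose protein triadin anchors calsequestrin to the ryanodine receptor, rose by 0.59 on the log2 scale, Jph3, a junctophilin that ties stores to the cell surface, by 0.51, and Atp2a3, a calcium pump of the store, by 0.28. Ryr2, a ryanodine receptor itself, averaged 89.7 ± 16.0 CPM in the WKY rats and 110 ± 15.1 CPM in the SH rats (SD, n = 6 each, adjusted p = 0.0873, edgeR). Jph2, another junctophilin, did not pass either (adjusted p = 0.102, edgeR). The library left out had 0 CPM of Ryr2 and 22.8 CPM of Clic2. Against the left CB of the same rat, Casq1 had 11.9 and 6.25 CPM, Trdn 11.9 and 23.8 CPM, and Atp2a3 74.5 and 145 CPM. Jph2 had 1.86 and 9.72 CPM and Jph3 2.23 and 25.2 CPM.

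**Figure D5:**
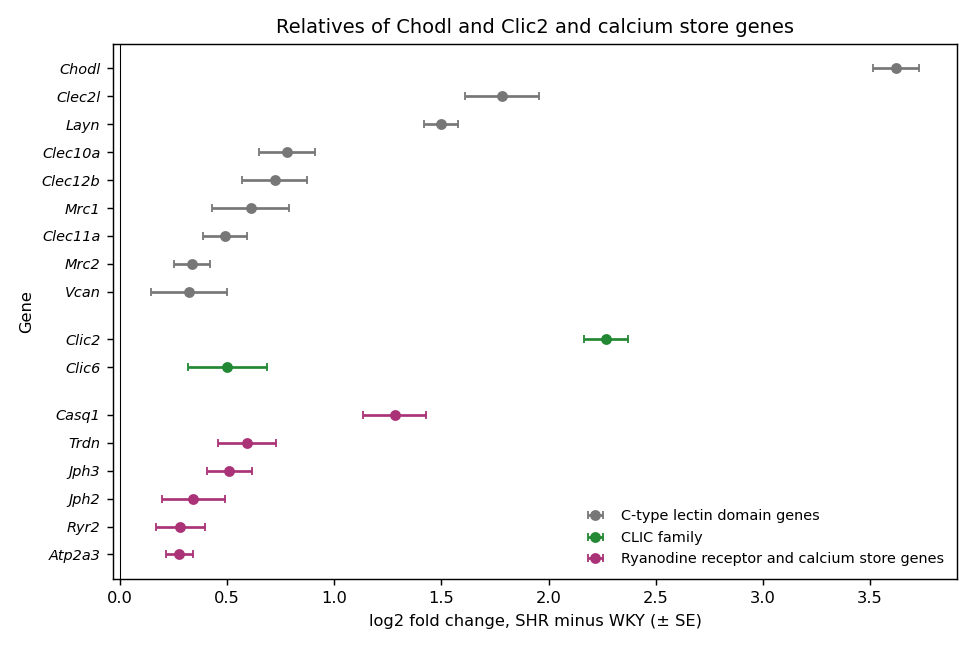
Log2 fold change, SHR minus WKY, with its standard error, of the paired C-type lectin domain genes, CLIC genes and calcium store genes. Chodl, at 3.62, and Clic2, at 2.27, lie above the other genes of their lists, the nearest of which are Clec2l at 1.78 and Clic6 at 0.50. Every gene shown is higher in SHR because the table of symbols holds only such genes.

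Markers of cell types could be paired under the same limit, so that a marker lower in SHR could not appear, and 10.2% of all genes were called higher. Of 12 glomus cell genes 5 could be paired, and Chga, Chgb, Dbh and Ret passed, with a median log2 fold change of 0.40 over the 5. Of the paired genes of smooth muscle (Acta2, Tagln and Cnn1) 0 of 3 passed, with log2 fold changes of 0.46 to 0.65. Of the paired adipocyte genes (Adipoq and Fabp4) 0 of 2 passed. Both paired macrophage genes (Cd163 and Mrc1), both mast cell genes (Cpa3 and Cma1) and both neuronal genes (Prph and Cartpt) passed. With so few genes, all paired because they were higher in SHR, these passes show no difference among cell types. The summed level of the macrophage genes was 16.0 to 28.7 CPM in WKY and 14.0 to 51.2 CPM in SHR, and that of the mast cell genes 0.388 to 2.05 and 1.34 to 9.25 CPM. Prph and Cartpt together had 185 to 287 CPM in WKY and 348 to 457 CPM in SHR, without overlap, and 21.3 CPM in the library left out. Tg, the paired gene of the thyroid, also passed, with a log2 fold change of 3.17 (SE 1.08, adjusted p = 0.0427, edgeR). It reached 218 CPM on the right in SH rat 30 and 29.3 CPM on the right in SH rat 37, and the other SHR libraries did not exceed the highest WKY library, at 10.7 CPM. No gene of the endothelial or sustentacular lists could be paired. The part of these cell types in the strain difference of Chodl and Clic2 was not tested.

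Genes most like Chodl within strains could be named only where a symbol was paired, which held for 5 of the 12 glomus cell genes. That none of these is named as most like Chodl is therefore not read as a result. Likeness was taken as Pearson's r over the 23 libraries after the mean of each strain was removed from log2(CPM + 0.5), a description in which the CBs of a rat and the depth of a library are shared. Over 14257 other genes, the highest r with Chodl was 0.80, and the named genes with the highest values were ND6, a mitochondrially encoded subunit of complex I (0.70, rank 25), Tube1, epsilon tubulin (0.68, rank 32), Lrrtm4, a synaptic adhesion gene (0.64, rank 69), Csmd3 (0.60, rank 108) and Tfb2m, a factor of mitochondrial transcription (0.59, rank 142). Actg1, a cytoplasmic actin, was among the lowest, at -0.70 (rank 14256), with the chemokine Ccl19 at -0.64 and the retinoic acid hydroxylase Cyp26b1 at -0.64. Layn had an r of 0.40 with Chodl, Clic2 0.025 and Chga 0.015.

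For Clic2 the highest r was 0.77, and Zcchc9 followed at 0.75 (rank 2). Next among named genes came Gstt3, a glutathione transferase (0.66, rank 28), Xrcc4, a DNA repair gene (0.64, rank 37), Gpr183, an oxysterol receptor of immune cells (0.63, rank 45), and Cd36, a fatty acid transporter (0.63, rank 47). The lowest named genes were Fam83h (-0.72), Fbf1 (-0.70) and the synaptic scaffold gene Shank3 (-0.66). With the 5 paired glomus cell genes, r of Clic2 ran from -0.48 (Ret) to -0.22 (Chgb), and was -0.42 with Chga. With the 6 paired calcium store genes it ran from -0.66 (Jph3) to 0.081 (Jph2). It was 0.34 to 0.43 with the smooth muscle genes Acta2, Tagln and Cnn1, whose r with Chodl was -0.42 to -0.32.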

How the data were processed

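Libraries were made with a stranded mRNA kit. The authors deposited raw counts per Ensembl gene, without normalization, and the submitters' processing notes name FastQC, STAR, featureCounts and DESeq2. Versions, genome build, annotation, counting strand and multi-mapping settings are not given in the sources used here, so no coordinates are printed. Columns were matched to libraries by the codes in the labels, and 1273 identifiers to symbols through the readable part of the study's list of genes, whose fold changes and p-values were not used. Counts were scaled with TMM and genes were tested, where their normalized counts averaged over 10, with edgeR 4.0.16 in R 4.3.3 (robust quasi-likelihood F-test, Benjamini-Hochberg adjustment over all genes). The strain fit had side as a covariate, and the side and interaction fit 1 mean per strain and side. DESeq2 1.42.0 was an alternative. CPM of the right CB of SH rat 34 came from scaling all 24 libraries, which moved the other libraries by at most -0.0358 on the log2 scale. Correlations used log2(CPM + 0.5), two-sided exact permutation tests for 6 rats and 100000 resamples for 11. Tables and figures were made with pandas 2.3.3 and matplotlib 3.10.9.

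The members and lists were chosen with earlier results of these data known. The rule for named genes took Chodl, Clic2 and Chga, the listed genes that could be paired, and for each member the 5 named genes of highest and the 3 of lowest within-strain r. Over the 276 pairs of libraries chi-square divided by its degrees of freedom was at least 5.18, so no library repeats another. Left and right CBs of a number come from the same rat. The correlation of their deviations from the group means had a median of 0.115 over 11 rats (-0.0357 to 0.283). Rat numbers shared by the strains do not pair the rats (-0.243 to 0.062 over 4 numbers). The labels give no batch. Alternatives were other scalings, filters, tests, sets of libraries and blocks, and leaving out each rat.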

Additional observations from a re-analysis of the deposited data

Results flagged for a closer look

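In the right CBs of SH rats, the library of rat 34 lay far from the other 5 for both genes. Chodl had 8.54 CPM there, and the gap to the nearest library was 0.658 of the whole range of the group, above the limit of 0.625 for 6 samples. Clic2 had 22.8 CPM, with a gap of 0.643 of the range. Of 12 groups of libraries examined (3 genes in 4 groups), these were the 2 that passed, and chance passes about 1 in 20. The level of Chga there was 54.1 CPM, with 505 CPM in the nearest library of that group.

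The same library, left out of the fits between strains, had 8.54 CPM of Chodl and 22.8 CPM of Clic2. As already given above, both lay above every WKY library (6.31 and 21.8 CPM at most when all 24 libraries were scaled together). Since this library held thyroid and adipocyte markers, its values are not further support for the strain difference.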

How the results depend on the processing

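Of 326 recomputed values of 21 results, 307 kept their direction and their side of the threshold or stayed near the reported value. This rule is loose, so the tally is no measure of stability. It took 2041 genes as near 2863, and a change of r of Chodl and Chga in SHR from 0.16 to 0.92 as kept. The number of genes called between strains was 2863, and it fell to 1483 with all 24 libraries, 1270 in the left CBs alone, 838 in the right CBs alone, 1568 with a replicate block on the rat numbers both strains share and 1638 for the same rats without the block, an alternative chosen after seeing the data. It was 2041 with counts summed per rat and 2193 to 2831 without each rat in turn. The log2 strain difference of Chodl was 3.56 to 3.68 and that of Clic2 2.19 to 2.35 without each rat in turn, and relative to Chga per rat they were 3.18 and 1.90. No test of a side difference or correlation passed under any alternative, apart from 1 gene between sides in SHR without rat 37 (0 to 1 genes without each rat in turn). The replicate block on the rat changed no call: the side difference was 0.11 for Chodl and 0.051 for Clic2 in WKY and -0.14 and -0.13 in SHR. Without each rat in turn, the side difference in WKY ran from -0.0069 to 0.19 for Chodl and from -0.056 to 0.15 for Clic2, reversing without rat 36 and rat 34.

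Correlations moved most with the right CB of SH rat 34. With all 24 libraries, r of Clic2 and Chga in SH rats turned from -0.61 to 0.71, and that of Chodl and Clic2 between sides from -0.14 to 0.81. In the same setting r of Chodl and Chga rose from 0.16 to 0.92 in SHR and from 0.084 to 0.93 between sides, that of Clic2 and Chga between sides from 0.26 to 0.88, and that of Chodl and Clic2 in SHR from 0.098 to 0.77, all 6 resting on that library and none passing correction (lowest adjusted permutation p = 0.1003). That of Chodl and Chga in WKY was 0.099 in the left CBs alone. Without each rat in turn, r of Chodl and Clic2 ran from -0.11 to 0.52 in WKY, from -0.30 to 0.34 in SHR and from -0.60 to 0.20 between sides, and r of Chodl and Chga between sides from -0.22 to 0.51. The causes were not tested. Depth limited Chodl in WKY, at 32 to 58 counts per library.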
